A study of Mus musculus with 374 samples.

Results

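A set of 10 nucleolar genes was examined in the mouse blood dataset, namely Npm1, Ncl, Fbl, Nop56, Nop58, Dkc1, Nolc1, Nop10, Gnl3 and Nhp2. They were taken by gene symbol from a table of 19829 mouse genes, and all 10 were present, with 2647 unique molecular identifiers (UMIs, counted once per captured transcript) between them. Single cells had been sorted by flow cytometry from 1 female C57BL/6 mouse aged 10 to 13 weeks and measured with CEL-seq2, a plate-based protocol that counts the 3′ ends of polyadenylated RNA. Bone marrow gave 44 B lymphocytes (B220+, low forward scatter), 96 erythroblasts (Ter119+ CD44+, mid to high forward scatter), 96 granulocytes (Mac1+ Gr1+) and 95 progenitor/stem cells (Lin- Kit+ Sca1+), while 43 T lymphocytes (CD3+, low forward scatter) came from the thymus. No genotype other than the strain and no treatment was given for any population. The mouse and the plate were the same for all 374 cells, so each population was 1 sample, no difference between populations could be tested against the spread between mice, and the 95% intervals given here cover counting error only.

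The nucleolus is where ribosomal RNA is transcribed by RNA polymerase I, cut, chemically modified and packed with ribosomal proteins into the 2 ribosomal subunits. Nucleophosmin (Npm1) and nucleolin (Ncl) are abundant nucleolar RNA-binding chaperones, and the human form of Npm1 is often mutated in acute myeloid leukaemia. Fbl, Nop56 and Nop58 encode core proteins of the box C/D small nucleolar ribonucleoproteins (snoRNPs), which methylate ribosomal RNA, with fibrillarin (Fbl) as the methyltransferase. Dkc1, Nop10 and Nhp2 encode core proteins of the box H/ACA snoRNPs, which turn uridine into pseudouridine, with dyskerin (Dkc1) as the enzyme. Inherited mutations in the human forms of these genes cause dyskeratosis congenita, a bone marrow failure syndrome. Nolc1 (Nopp140) is a chaperone of both kinds of snoRNP, and Gnl3 (nucleostemin) is a nucleolar GTPase named for its presence in stem cells. The transcription factor MYC is known as a general activator of ribosome production.

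The depth differed between populations. A cell gave a median of 7959 UMIs on mouse genes in progenitor/stem cells, 6113.5 in erythroblasts, 4347 in T lymphocytes, 3880 in granulocytes and 3028.5 in B lymphocytes, and the 374 cell barcodes were all distinct. Levels are therefore given as CPM, the UMIs of a gene per 1000000 UMIs on mouse genes, summed over the cells of a population. Each sorted population was highest for its own marker list, with 3527 CPM of 6 progenitor/stem markers (among them Kit, Cd34 and Flt3) in progenitor/stem cells against 135 to 230 CPM elsewhere, and 9558 CPM of 7 B cell markers in B lymphocytes against 121 to 309 CPM elsewhere. Markers of other cells were also found outside their own population. The 4 adult haemoglobin genes reached 235370 CPM in erythroblasts, and 12136 CPM in progenitor/stem cells, 15422 CPM in granulocytes, 17695 CPM in T lymphocytes and 28290 CPM in B lymphocytes. Their part in the levels of the nucleolar genes was not tested. The profile of 7 cells lay closer to another population than to its own, and leaving them out moved none of the 4 ratios of the summed genes beyond its counting interval.

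The 10 nucleolar genes together were highest in progenitor/stem cells, at 2209 CPM (95% exact Poisson interval 2109 to 2312, 1844 UMIs). The T lymphocytes followed at 1228 CPM (1079 to 1391, 246 UMIs), the B lymphocytes at 906 CPM (753 to 1081, 123 UMIs), the erythroblasts at 480 CPM (429 to 536, 320 UMIs) and the granulocytes at 283 CPM (233 to 339, 114 UMIs). These 5 intervals overlapped only between the T and B lymphocytes, by a narrow margin, and the log2 ratio of T over B lymphocytes was 0.44 (exact conditional binomial interval 0.12 to 0.76). On the log2 scale the progenitor/stem cells exceeded the granulocytes by 2.97 (2.69 to 3.25), the erythroblasts by 2.20 (2.03 to 2.38), the B lymphocytes by 1.29 (1.02 to 1.56) and the T lymphocytes by 0.85 (0.65 to 1.05). The order of the 5 populations was the same with Npm1 left out, with 1185 CPM for the other 9 genes in progenitor/stem cells and 699, 464, 316 and 176 CPM in T lymphocytes, B lymphocytes, erythroblasts and granulocytes. Each of the 10 genes had its highest measured CPM in progenitor/stem cells, although Gnl3 had too few UMIs to place the lymphocytes. For Nop56, Nop58, Dkc1, Nop10 and Nhp2 the interval of the log2 ratio to the T lymphocytes also included 0. That to the B lymphocytes included 0 for the same genes except Nop10.

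**Figure D1:**
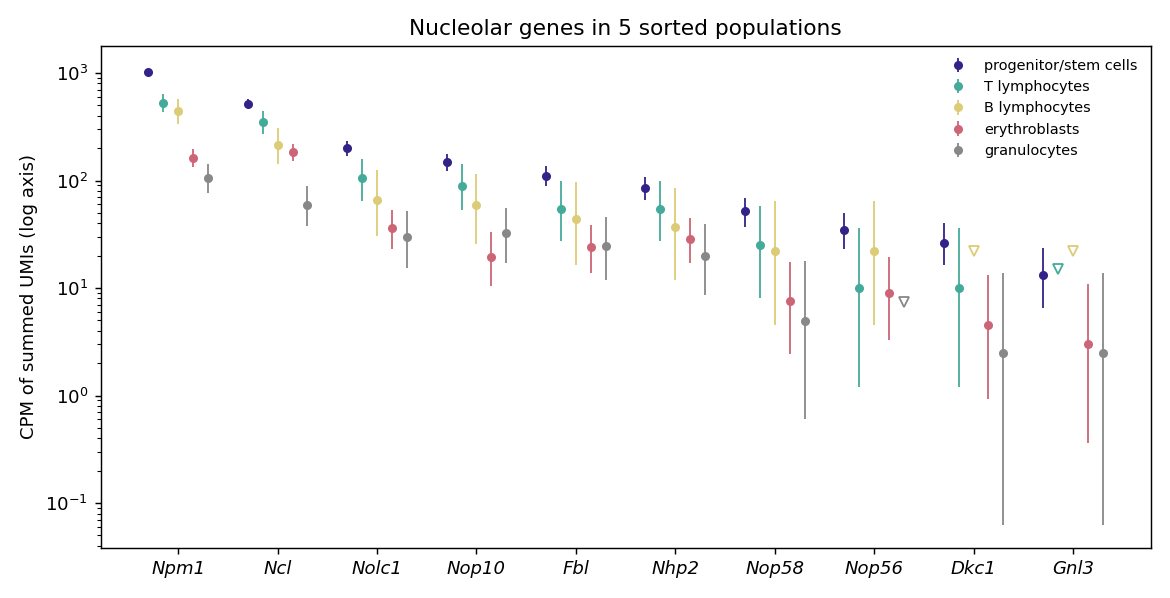
CPM (log axis) of each of the 10 nucleolar genes in the 5 populations, as points with 95% exact Poisson intervals, which cover counting error only. Open triangles mark a population with 0 UMIs, drawn at the level of 3 UMIs. The progenitor/stem cells have the highest filled point for every gene, the triangles of Gnl3 in the lymphocytes lie above it, and Npm1 ranges from 1024 CPM there to 107 CPM in granulocytes.

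Npm1 and Ncl gave most of the UMIs of the set, with 1173 and 678 UMIs, or 44.3% and 25.6% of the total. CEL-seq2 counts 1 end of each transcript, so these levels were not divided by gene length. Npm1, on chromosome 11 (GRCm38, 33152287 to 33163206, minus strand), was measured at 1024 CPM (957 to 1095) in progenitor/stem cells, 529 CPM (433 to 640) in T lymphocytes, 442 CPM (337 to 569) in B lymphocytes, 163 CPM (134 to 197) in erythroblasts and 107 CPM (77.1 to 144) in granulocytes. The 2 lymphocyte populations lay within counting error of each other for Npm1, with a log2 ratio of T over B of 0.26 (-0.21 to 0.74). The progenitor/stem cells exceeded the granulocytes 9.61-fold (7.07 to 13.4) and the T lymphocytes 1.94-fold (1.58 to 2.39).

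Ncl, on chromosome 1 (GRCm38, 86344719 to 86359400, minus strand), stood at 517 CPM (470 to 569) in progenitor/stem cells, 349 CPM (272 to 441) in T lymphocytes, 214 CPM (143 to 307) in B lymphocytes, 184 CPM (153 to 220) in erythroblasts and 59.5 CPM (38.1 to 88.5) in granulocytes. Its order was that of Npm1, but the erythroblasts lay nearer to the B lymphocytes, with a log2 ratio of B over erythroblasts of 0.21 (-0.43 to 0.80) for Ncl against 1.43 (0.95 to 1.90) for Npm1. The make-up of the set differed accordingly. In the erythroblasts Ncl had 123 UMIs and Npm1 109, or 38.4% and 34.1% of the set, whereas Npm1 had the larger share in the other 4 populations, from 37.7% in granulocytes to 48.8% in B lymphocytes. The log2 ratio of progenitor/stem cells over erythroblasts was 1.49 (1.20 to 1.79) for Ncl and 2.65 (2.36 to 2.95) for Npm1, and these intervals did not overlap.

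Among the box C/D genes, Fbl (chromosome 7, 28169710 to 28179269, plus strand) was the best covered. Its levels were 110 CPM (88.8 to 135, 92 UMIs) in progenitor/stem cells, 54.9 CPM (27.4 to 98.2, 11 UMIs) in T lymphocytes, 44.2 CPM (16.2 to 96.2, 6 UMIs) in B lymphocytes, 24.8 CPM (11.9 to 45.6, 10 UMIs) in granulocytes and 24.0 CPM (13.7 to 39.0, 16 UMIs) in erythroblasts. Past the progenitor/stem cells no neighbours in that order differed beyond counting error. Nop58 (chromosome 1, 59684971 to 59719044, plus strand) had 43 UMIs in progenitor/stem cells (51.5 CPM), 5 in T lymphocytes (25.0 CPM), 3 in B lymphocytes (22.1 CPM), 5 in erythroblasts (7.50 CPM) and 2 in granulocytes (4.96 CPM). Its log2 ratio of progenitor/stem cells over erythroblasts was 2.78 (1.45 to 4.47), and over T lymphocytes 1.05 (-0.29 to 2.74), an interval that includes 0.

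Nop56 (chromosome 2, 130274430 to 130279313, plus strand) had 29 UMIs in progenitor/stem cells (34.7 CPM), 6 in erythroblasts, 3 in B lymphocytes, 2 in T lymphocytes and 0 in granulocytes, where 3 UMIs would be 7.43 CPM. With the granulocyte sum set to that limit of 3 UMIs, the ratio of progenitor/stem cells over granulocytes was 4.67-fold for Nop56. The exact counting interval of the ratio starts lower, at 3.56-fold. The count of this gene is uncertain, since 5 processed pseudogenes carry a near-identical copy of the last 300 bases of a Nop56 transcript (at least 200 bases at 95% identity or more) and the other 9 genes have none by the same search. Of these copies, 3 were in the table, Gm27219 with 69 UMIs, Gm9432 with 46 and Gm1947 with 14, together more than the 40 UMIs of Nop56. Nop56 and these 3 copies together had 115 UMIs in progenitor/stem cells (138 CPM), 12 in B lymphocytes (88.4 CPM), 14 in T lymphocytes (69.9 CPM), 27 in erythroblasts (40.5 CPM) and 1 in granulocytes (2.48 CPM). The log2 ratio of progenitor/stem cells over erythroblasts was then 1.77 (1.15 to 2.43), against 1.95 (0.66 to 3.51) for Nop56 alone.

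Of the H/ACA genes, Nop10 (chromosome 2, 112261926 to 112263269, plus strand) had the most UMIs, at 147 CPM (122 to 176) in progenitor/stem cells, 89.8 CPM (53.2 to 142) in T lymphocytes, 58.9 CPM (25.4 to 116) in B lymphocytes, 32.2 CPM (17.2 to 55.1) in granulocytes and 19.5 CPM (10.4 to 33.3) in erythroblasts. Nop10 was thus lowest in erythroblasts, where the progenitor/stem cells were 7.56-fold (4.26 to 14.6) higher, although its erythroblast and granulocyte levels did not differ beyond counting error (log2 ratio -0.72, interval -1.95 to 0.50). Nhp2 (chromosome 11, 51619735 to 51623714, plus strand) had 85.0 CPM (66.4 to 107) in progenitor/stem cells, 54.9 CPM (27.4 to 98.2) in T lymphocytes, 36.8 CPM (12.0 to 85.9) in B lymphocytes, 28.5 CPM (17.2 to 44.5) in erythroblasts and 19.8 CPM (8.56 to 39.1) in granulocytes. Of the 4 ratios of Nhp2 from the progenitor/stem cells, those to the erythroblasts (log2 1.58, 0.83 to 2.39) and granulocytes (2.10, 1.04 to 3.37) excluded 0. Dkc1 (chromosome X, 75095854 to 75109777, plus strand) had 22 UMIs in progenitor/stem cells (26.4 CPM), 3 in erythroblasts, 2 in T lymphocytes, 1 in granulocytes and 0 in B lymphocytes, where the limit of 3 UMIs is 22.1 CPM, and the interval of its ratio of progenitor/stem cells over B lymphocytes starts at 0.89-fold, so no difference was detectable at this depth.

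Nolc1 and Gnl3 completed the set. Nolc1 (chromosome 19, 46075863 to 46085530, plus strand) had 232 UMIs, the most after Npm1 and Ncl, with 199 CPM (170 to 232) in progenitor/stem cells, 105 CPM (64.9 to 160) in T lymphocytes, 66.3 CPM (30.3 to 126) in B lymphocytes, 36.0 CPM (23.1 to 53.6) in erythroblasts and 29.7 CPM (15.4 to 51.9) in granulocytes. All 4 ratios from the progenitor/stem cells excluded 0 for Nolc1, as they did for Npm1, Ncl and Fbl. The T lymphocyte level of Nolc1 also exceeded that of the erythroblasts (log2 1.54, 0.62 to 2.45). Gnl3 (chromosome 14, 31012433 to 31019152, minus strand) was scarcely captured, with 14 UMIs in all, of which 11 were in progenitor/stem cells (13.2 CPM), 2 in erythroblasts and 1 in granulocytes. Its 0 UMIs in T and B lymphocytes have exact Poisson upper limits of 18.4 and 27.2 CPM, above the progenitor/stem level, so no difference from the lymphocytes was detectable at this depth. Parts of 4 members overlap a gene on the opposite strand, Nop56 with Idh3b (296 UMIs), Dkc1 with Mpp1 (330 UMIs), Gnl3 with Pbrm1 (765 UMIs) and Nhp2 with Rmnd5b. Without strand in the counting, reads of these pairs could not be told apart, and the setting used was not stated. On the same strand, small nucleolar RNA genes overlap Ncl, Nop56, Nop58, Dkc1 and Gnl3, and strand would not separate those. Among them Gm24916, in Gnl3, had 13 UMIs.

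Since the 10 genes shared the population of their highest measured CPM, not resolved from the lymphocytes for all of them, their promoters were read. They came from RefSeq (GRCm38.p6, 250 bases before to 50 after the start), which held 8 of the 10 genes, all but Npm1 and Fbl. They were searched on both strands for the E-box CACGTG, the letters best known from MYC binding, and for CCGGAA, the core read by ETS factors. The 2 motifs do not overlap each other. The E-box was in none of the 8 windows and in 7.15% of all 32851 promoters of the same length. The ETS core was in 3 of the 8 windows and in 14.9% of all promoters. These 3 are shown with the ETS core in capitals, and Ncl is shown as the best covered matched gene without either motif. Nop58 lies at chr1:59684756-59685055 on the plus strand, Nhp2 at chr11:51619523-51619822 on the plus strand, Nolc1 at chr19:46075597-46075896 on the plus strand and Ncl at chr1:86359406-86359705 on the minus strand, each printed 5′ to 3′ in the direction of the gene.
Nop58: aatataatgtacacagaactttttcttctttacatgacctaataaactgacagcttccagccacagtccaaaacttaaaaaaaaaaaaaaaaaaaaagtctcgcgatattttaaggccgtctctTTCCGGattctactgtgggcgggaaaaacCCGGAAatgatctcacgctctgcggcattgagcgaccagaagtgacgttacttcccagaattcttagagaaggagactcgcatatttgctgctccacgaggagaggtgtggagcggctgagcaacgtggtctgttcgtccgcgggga
Nhp2: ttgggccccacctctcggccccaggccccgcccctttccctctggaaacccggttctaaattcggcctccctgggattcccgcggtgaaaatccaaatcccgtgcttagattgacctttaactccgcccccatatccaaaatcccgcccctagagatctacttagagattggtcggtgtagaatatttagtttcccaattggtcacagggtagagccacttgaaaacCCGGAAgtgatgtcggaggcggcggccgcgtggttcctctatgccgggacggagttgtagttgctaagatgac
Nolc1: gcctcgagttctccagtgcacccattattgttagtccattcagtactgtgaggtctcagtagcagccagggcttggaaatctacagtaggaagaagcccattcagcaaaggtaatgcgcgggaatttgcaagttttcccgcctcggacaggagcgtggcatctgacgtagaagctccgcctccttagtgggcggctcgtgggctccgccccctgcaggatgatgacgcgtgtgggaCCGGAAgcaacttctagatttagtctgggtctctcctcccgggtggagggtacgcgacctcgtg
Ncl: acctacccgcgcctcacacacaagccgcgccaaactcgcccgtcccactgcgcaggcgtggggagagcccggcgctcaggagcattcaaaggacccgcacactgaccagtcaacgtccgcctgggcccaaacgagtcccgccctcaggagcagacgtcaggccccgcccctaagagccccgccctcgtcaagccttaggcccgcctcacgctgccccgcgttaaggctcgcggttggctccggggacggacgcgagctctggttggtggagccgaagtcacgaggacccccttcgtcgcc
The first letter of the core stood at -126 and -97 relative to the start in Nop58, at -23 in Nhp2 and at -14 in Nolc1. In Nop58 the first copy is on the opposite strand and so reads TTCCGG. Nolc1, Nhp2 and Nop58 spanned a range of levels in progenitor/stem cells (199, 85.0 and 51.5 CPM), and Ncl, without the core, was at 517 CPM. A match is a run of letters and not a measured binding site.

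The ratios of single genes were set against every gene that reached 50 UMIs over the pair of populations compared. Most genes had a higher CPM in progenitor/stem cells, and the median log2 ratio over all such genes was 0.73 against the erythroblasts, 0.76 against the granulocytes, 0.44 against the B lymphocytes and 0.22 against the T lymphocytes. Of the 10 members, 6 reached 50 UMIs (Npm1, Ncl, Nolc1, Nop10, Fbl and Nhp2), each through its progenitor/stem UMIs alone, so these 6 are not a sample of the set free of its direction. All 6 were at least 2-fold higher in progenitor/stem cells than in erythroblasts, as were 40.9% of the 4792 genes. All 6 were at least 2-fold higher than in granulocytes, as were 42.7% of 4440 genes, and all 6 at least 2-fold higher than in B lymphocytes, as were 27.9% of 3793 genes. Against the T lymphocytes 1 of the 6 passed 2-fold, Fbl at 2.01-fold (1.07 to 4.16), beside 17.8% of 4060 genes. The other 5 lay between 1.48-fold (Ncl) and 1.94-fold (Npm1). None of the 6 was 2-fold lower in the progenitor/stem cells in any comparison, beside 14.8% of genes against the erythroblasts, 13.7% against the granulocytes, 6.56% against the B lymphocytes and 8.35% against the T lymphocytes.

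**Figure D2:**
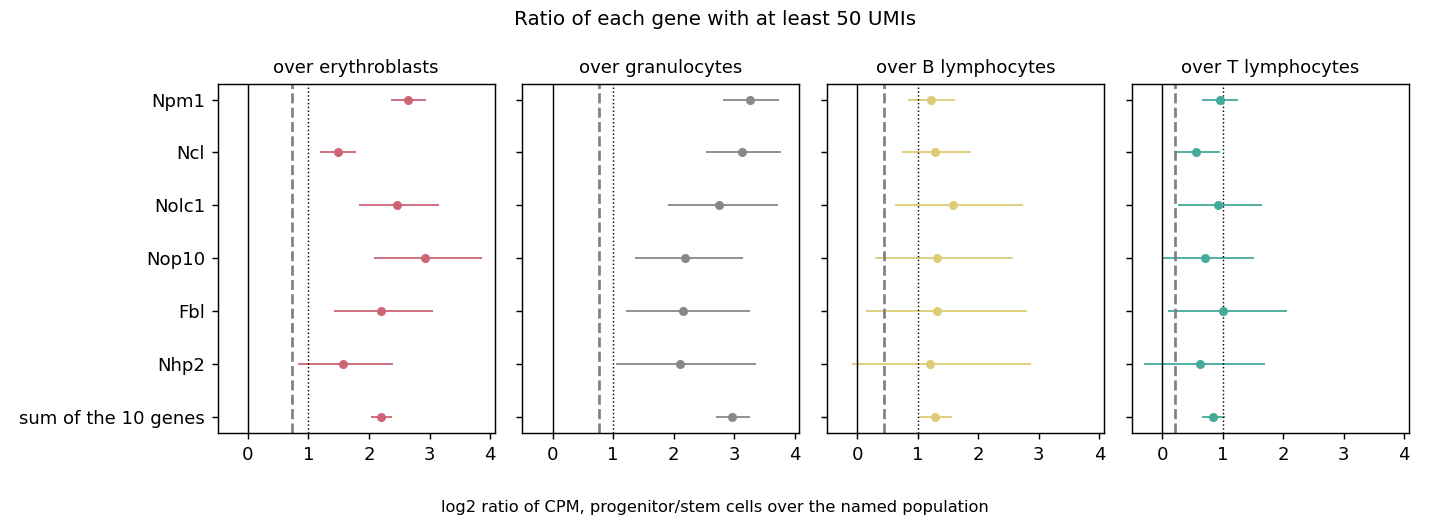
Log2 ratio of CPM, progenitor/stem cells over each other population, for the 6 genes with at least 50 UMIs and for the sum of the 10 genes, with 95% exact conditional binomial intervals. The solid line is 0, the dotted line 2-fold and the dashed line the median of all genes tested, from 0.22 (T lymphocytes) to 0.76 (granulocytes). The points lie to the right of the dashed line in all 4 panels, nearest to it in T lymphocytes.

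Relative to the median of all genes, the summed members were higher in progenitor/stem cells by 1.47 than in erythroblasts, by 2.21 than in granulocytes, by 0.85 than in B lymphocytes and by 0.63 than in T lymphocytes, on the log2 scale. The scale of the ratio itself depended on the normalisation. With TMM factors the summed ratio to the erythroblasts was 1.34 and with scran size factors 1.19, in place of 2.20. Under each of these, 4 of the 6 genes passed 2-fold, beside 23.6% (TMM) and 21.5% (scran) of all genes. Under the same scran factors the genes past 2-fold in either direction were higher in progenitor/stem cells in 41.3% of cases against the erythroblasts, 46.4% against the granulocytes and 65.9% against the B lymphocytes, in place of 73.5%, 75.7% and 80.9% by CPM. With TMM factors these shares were 46.4%, 48.9% and 75.3%.

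The counts per cell and per spike-in molecule gave the same top and bottom. A progenitor/stem cell held a mean of 19.4 UMIs of the 10 genes, a T lymphocyte 5.72, an erythroblast 3.33, a B lymphocyte 2.80 and a granulocyte 1.19. Per 1000 UMIs of the ERCC spike-in RNA added to the wells, the sums were 41.5 (39.6 to 43.4) in progenitor/stem cells, 12.4 (10.9 to 14.1) in T lymphocytes, 8.32 (7.44 to 9.29) in erythroblasts, 6.79 (5.64 to 8.10) in B lymphocytes and 2.73 (2.25 to 3.28) in granulocytes. By these measures the erythroblasts stood above the B lymphocytes, the reverse of the order by CPM, with overlapping ERCC-scaled intervals. The haemoglobin genes, at 235370 CPM, were part of the erythroblast total by which CPM is divided. With haemoglobin, mitochondrial genes, Gm42418 and Mir6240 out of the total, the erythroblasts stayed below the B lymphocytes. The log2 ratio of progenitor/stem cells was then 1.84 over erythroblasts and 1.05 over B lymphocytes. The cause of the changed order was not tested.

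Ribosomes were not measured. Levels of RNA were compared for the 76 cytosolic ribosomal protein genes. Their sum was 58226 CPM in progenitor/stem cells, 42042 CPM in T lymphocytes, 36274 CPM in erythroblasts, 30352 CPM in B lymphocytes and 14773 CPM in granulocytes. The erythroblasts were thus above the B lymphocytes for ribosomal proteins and below them for the 10 nucleolar genes. Of 69 ribosomal protein genes with at least 50 UMIs, 15 were at least 2-fold higher in progenitor/stem cells than in erythroblasts, 68 than in granulocytes, 32 than in B lymphocytes and 5 than in T lymphocytes, beside 40.9%, 42.7%, 27.9% and 17.8% of all genes. For every 1000 ribosomal protein UMIs there were 37.9 (36.2 to 39.7) UMIs of the nucleolar genes in progenitor/stem cells, 29.8 (24.8 to 35.6) in B lymphocytes, 29.2 (25.7 to 33.1) in T lymphocytes, 19.1 (15.8 to 23.0) in granulocytes and 13.2 (11.8 to 14.8) in erythroblasts. On this measure the erythroblasts were lowest, 4.51 (3.70 to 5.44) for Npm1 alone against 17.6 (16.4 to 18.8) in progenitor/stem cells. The total UMIs of a population cancel in this ratio.

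Detection in single cells was compared at the depth of each cell and at a common depth. A UMI of Npm1 was found in 91 of 95 progenitor/stem cells (95.8%, exact binomial interval 89.6 to 98.8), 38 of 43 T lymphocytes (88.4%, 74.9 to 96.1), 24 of 44 B lymphocytes (54.5%, 38.8 to 69.6), 47 of 96 erythroblasts (49.0%, 38.6 to 59.4) and 27 of 96 granulocytes (28.1%, 19.4 to 38.2). Ncl was found in a larger share of erythroblasts (57.3%, 46.8 to 67.3) than of the shallower B lymphocytes (43.2%, 28.3 to 59.0), against the order of its CPM, with overlapping intervals. Nolc1 (20.8% against 15.9%) and Nhp2 (10.4% against 6.82%) were likewise found in a larger share of erythroblasts, also with overlapping intervals. A UMI of any of the 10 genes was found in all 95 progenitor/stem cells, 42 of 43 T lymphocytes, 35 of 44 B lymphocytes, 73 of 96 erythroblasts and 48 of 96 granulocytes. Because depth differed, each cell was also thinned at random to 1000 UMIs, which left out 5 shallower cells, 1 T lymphocyte, 1 B lymphocyte, 1 erythroblast and 2 granulocytes. The thinned shares for any of the 10 genes were 78.9% (69.4 to 86.6) of progenitor/stem cells, 61.9% (45.6 to 76.4) of T lymphocytes, 55.8% (39.9 to 70.9) of B lymphocytes, 27.4% (18.7 to 37.5) of erythroblasts and 14.9% (8.39 to 23.7) of granulocytes. At that depth Ncl was found in 14.7% of erythroblasts and 11.6% of B lymphocytes. Nolc1 was found in 4.21% and 9.30%, and Nhp2 in 2.11% and 2.33%, all with overlapping intervals. No population here is known to lack these genes, so no share of background from free RNA could be measured on them, and a haemoglobin UMI was present in every thinned cell of all 5 populations.

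The share of a cell's UMIs on the 10 genes varied widely within each population. Among the cells with at least 1000 UMIs it ran from 0.0364% to 0.503% in progenitor/stem cells (median 0.192%), from 0 to 0.368% in T lymphocytes (median 0.117%), from 0 to 0.277% in B lymphocytes (median 0.0702%), from 0 to 0.217% in erythroblasts (median 0.0287%) and from 0 to 0.146% in granulocytes (median 0.0144%). The progenitor/stem cells had no cell without a UMI of the set. All 5 ranges overlapped, although the lower quartile of the progenitor/stem cells (0.134%) lay above the median of each other population.

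**Figure D3:**
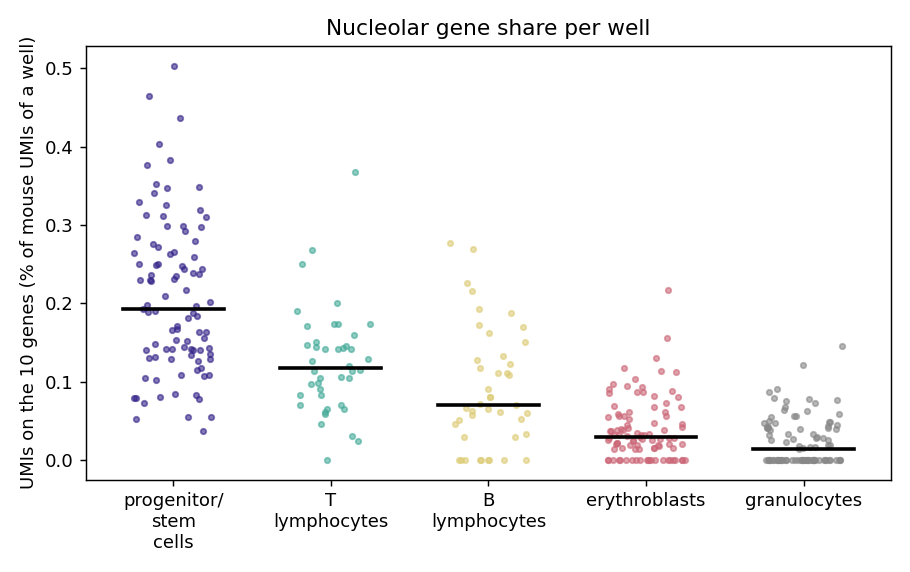
Percent of the mouse UMIs of a cell on the 10 nucleolar genes, 1 point for each cell with at least 1000 UMIs (spread sideways at random) and a bar at the median. Medians run from 0.192% in progenitor/stem cells to 0.0144% in granulocytes, and the cells of the 5 populations overlap.

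Within the 95 erythroblasts with at least 1000 UMIs, the share of UMIs on the 10 genes was compared with the sort measurements of the same cells, as descriptions over cells of 1 mouse. It was lower in cells with more haemoglobin, with Pearson's r of -0.66 and Spearman's rho of -0.65 against the haemoglobin share. That share is part of the denominator, and with haemoglobin UMIs taken out of it the values were -0.57 and -0.56. The share off haemoglobin was higher in cells with more forward scatter, a measure of cell size (r 0.38, rho 0.39), and lower in cells with more Ter119, a surface marker gained in erythroid maturation (r -0.41, rho -0.42). It was higher where ribosomal protein genes were higher (r 0.58, rho 0.53), and these measures share the total of the cell. Total UMIs differed along with it (r 0.39), so depth moved with these relations. Against Mki67, a proliferation marker, r was -0.14. Against CD44, the surface protein used in the sort, r was 0.34. In the 95 progenitor/stem cells the share had r of 0.36 against CD44, 0.32 against total UMIs, 0.30 against the ribosomal protein share, 0.27 against forward scatter, -0.26 against Sca-1, 0.24 against Myc UMIs and 0.08 against c-Kit, so depth moved with it there too.

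The populations filled different rows of the plate, so population and plate position cannot be told apart. The 4 rows of progenitor/stem cells gave 1952 to 2448 CPM for the 10 genes, the 2 rows of T lymphocytes 1130 and 1309 CPM, the 2 rows of B lymphocytes 849 and 967 CPM, the 4 rows of erythroblasts 425 to 526 CPM and the 4 rows of granulocytes 202 to 348 CPM. By these point values no row of 1 population reached into the range of another. The counting intervals of some rows did overlap, between T and B lymphocytes, between B lymphocytes and erythroblasts, and between erythroblasts and granulocytes. For B lymphocytes and erythroblasts the overlap was narrow, of row A (648 to 1093) with row F (418 to 654). Within the progenitor/stem cells the summed genes differed beyond counting error between row M (1773 to 2145) and row N (2241 to 2670). Among the progenitor/stem rows, Ncl ranged from 351 CPM (277 to 438) in row M to 642 CPM (537 to 762) in row L, beyond counting error, while Npm1 ranged from 888 CPM (762 to 1029) to 1122 CPM (981 to 1277).

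**Figure D4:**
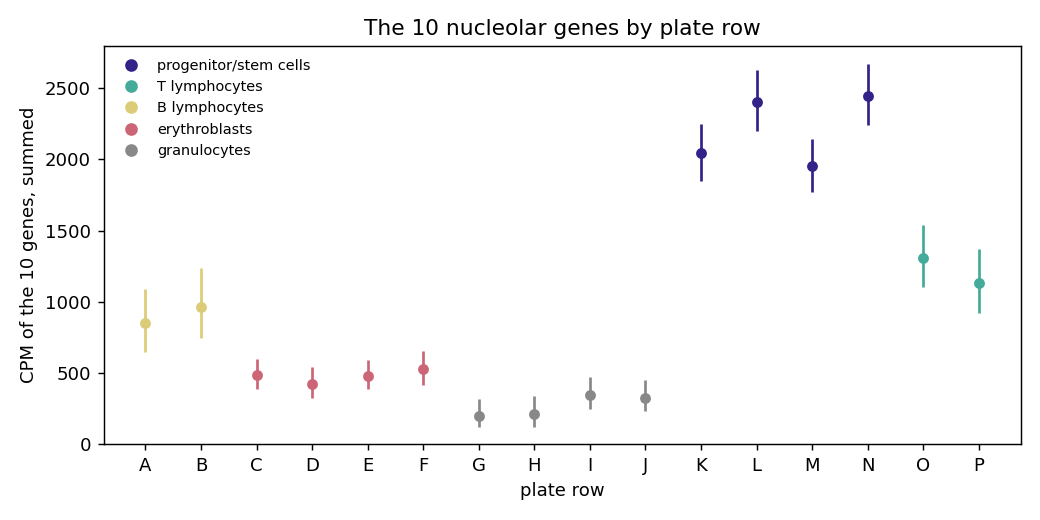
Summed CPM of the 10 nucleolar genes in each plate row, with 95% exact Poisson intervals, coloured by the population sorted into the row. The 4 rows of progenitor/stem cells (K to N) lie between 1952 and 2448 CPM and the 4 rows of granulocytes (G to J) between 202 and 348 CPM.

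The genes beside the 10 in ribosome production were read from lists of their roles. Of 11 snoRNP partners and assembly factors, 10 were in the table, and they summed to 531 CPM in progenitor/stem cells, 314 CPM in T lymphocytes, 243 CPM in B lymphocytes, 183 CPM in erythroblasts and 102 CPM in granulocytes, which is the order of the members. Of the 4 with at least 50 UMIs, 3 were at least 2-fold higher in progenitor/stem cells than in erythroblasts, 4 than in granulocytes, 2 than in B lymphocytes and 3 than in T lymphocytes, beside 40.9%, 42.7%, 27.9% and 17.8% of all genes. Gar1, the remaining core protein of H/ACA snoRNPs, had 87.4 CPM in progenitor/stem cells against 29.9, 22.1, 12.0 and 12.4 CPM in T lymphocytes, B lymphocytes, erythroblasts and granulocytes. Snu13, the remaining core protein of the box C/D snoRNPs, had 74.3 CPM in progenitor/stem cells, 73.6 CPM in B lymphocytes, 59.9 CPM in T lymphocytes and 58.5 CPM in erythroblasts, and differed beyond counting error only from the granulocytes (7.43 CPM). Ruvbl2, an ATPase of the assembly complex, was at 98.2 CPM against 14.9 to 66.3 CPM elsewhere, and its partner Rpap3 at 34.7 CPM in progenitor/stem cells and 64.9 CPM in T lymphocytes (log2 ratio -0.90, -1.89 to 0.17). Gar1, Snu13 and Ruvbl2 reached 50 UMIs through their progenitor/stem UMIs alone (73, 62 and 82). The 2-fold counts of this list are therefore not free of that direction.

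Of 43 assembly factors of the 60S subunit, 42 were in the table. Their sum was 2813 CPM in progenitor/stem cells, 2046 CPM in T lymphocytes, 1355 CPM in B lymphocytes, 655 CPM in erythroblasts and 540 CPM in granulocytes. Of 23 with at least 50 UMIs, 22 were at least 2-fold higher in progenitor/stem cells than in erythroblasts, 23 of 23 than in granulocytes, 14 of 21 than in B lymphocytes and 5 of 23 than in T lymphocytes, with none 2-fold lower in any comparison. The shares of all genes were 40.9%, 42.7%, 27.9% and 17.8% in the same order, and the count against the T lymphocytes was near that background. The RNA helicase Ddx21 had 260 CPM in progenitor/stem cells and 165 CPM in T lymphocytes, and Rsl1d1 207 and 84.8 CPM. Both reached 50 UMIs through their progenitor/stem UMIs alone (217 and 173), so the 2-fold counts of this list are not free of that direction. Ddx27, another nucleolar helicase, was level between progenitor/stem cells (93.4 CPM), erythroblasts (94.5 CPM) and T lymphocytes (99.8 CPM) and at 14.9 CPM in granulocytes. Rrp1 and Nsa2 were highest in T lymphocytes, at 160 and 115 CPM against 103 and 111 CPM in progenitor/stem cells, within counting error.

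The small subunit processome and 40S maturation factors summed to 1930 CPM in progenitor/stem cells and 1727 CPM in T lymphocytes, a log2 ratio of 0.16 (-0.01 to 0.33), and RNA polymerase I and its factors to 800 and 719 CPM, a log2 ratio of 0.16 (-0.11 to 0.43). The members had 0.85 (0.65 to 1.05) in the same comparison. Of 16 processome and 40S factors with at least 50 UMIs, 1 was 2-fold higher in progenitor/stem cells than in T lymphocytes, and of 7 genes of RNA polymerase I, 0. Against the erythroblasts these counts were 12 of 15 and 5 of 7, and against the granulocytes 10 of 14 and 5 of 7. Against the B lymphocytes they were 7 of 15 and 2 of 6. All genes passed in 17.8% (T lymphocytes), 40.9% (erythroblasts), 42.7% (granulocytes) and 27.9% (B lymphocytes) of cases, and the 2 of 6 were near that background. Ubtf, the upstream binding factor of ribosomal DNA, was at 114 CPM in progenitor/stem cells and 109 CPM in erythroblasts, and Polr1a, the largest subunit of RNA polymerase I, at 101 CPM in progenitor/stem cells, 104 CPM in granulocytes and 9.00 CPM in erythroblasts. Polr1d was at 111 CPM in progenitor/stem cells and 140 CPM in B lymphocytes, Polr1f at 129 and 44.2 CPM, and Ttf1, the termination factor, at 51.5 CPM in progenitor/stem cells and 89.8 CPM in T lymphocytes. From the list of processome and 40S factors, Emg1, Riok1 and Bms1 had 99.4, 94.6 and 111 CPM in progenitor/stem cells. They had 118, 95.7 and 118 CPM in B lymphocytes and 120, 74.9 and 115 CPM in T lymphocytes. Polr1f and Bms1 reached 50 UMIs through their progenitor/stem UMIs alone (108 and 93), so the 2-fold counts of both lists are not free of that direction.

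The list of 12 other nucleolar proteins summed to 1285 CPM in progenitor/stem cells, 1003 CPM in T lymphocytes, 832 CPM in B lymphocytes, 409 CPM in erythroblasts and 347 CPM in granulocytes. Of 9 with at least 50 UMIs, 6 were at least 2-fold higher in progenitor/stem cells than in erythroblasts, 8 than in granulocytes, 3 than in B lymphocytes and 2 than in T lymphocytes. Beside 40.9%, 42.7%, 27.9% and 17.8% of all genes, the counts against both lymphocyte populations were near the background. Pa2g4 had 229 CPM in progenitor/stem cells and 150 CPM in erythroblasts, Tcof1 (treacle) 169 CPM in progenitor/stem cells and 205 CPM in T lymphocytes, and Ddx47 69.5 and 74.9 CPM. Nol7 was higher in B lymphocytes (206 CPM) than in progenitor/stem cells (129 CPM), with a log2 ratio of -0.67 (-1.28 to -0.02). Pa2g4, Tcof1 and Nol7 reached 50 UMIs through their progenitor/stem UMIs alone (191, 141 and 108). The 2-fold counts of this list are likewise not free of that direction. Against the erythroblasts the median log2 ratio was 1.70 for the snoRNP partners, 2.11 for the 60S factors, 2.21 for the processome and 40S factors, 1.18 for RNA polymerase I and 2.65 for the other nucleolar proteins, beside 0.73 for all genes. Against the T lymphocytes these medians were 1.67, 0.45, 0.37, 0.15 and 0.05, beside 0.22. Among genes with at least 50 UMIs over all populations together, the progenitor/stem cells were the highest population for 7 of 7 members, 6 of 7 snoRNP partners, 21 of 30 60S factors, 5 of 10 other nucleolar proteins, 12 of 26 processome and 40S factors and 3 of 8 genes of RNA polymerase I, and for 31.9% of all 6317 genes. By this limit Nop58 joined the members, with 43 of its 58 UMIs in progenitor/stem cells. Fbl, Nhp2 and Nop58 reached 50 UMIs only with that population, so the 7 of 7 is not free of its direction. The same holds for Gar1 (73 of 95 UMIs there) among the snoRNP partners and Rsl1d1 (173 of 220) among the 60S factors. The counts of those lists are therefore not free of it either, and the remaining lists had the same limit.

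**Figure D5:**
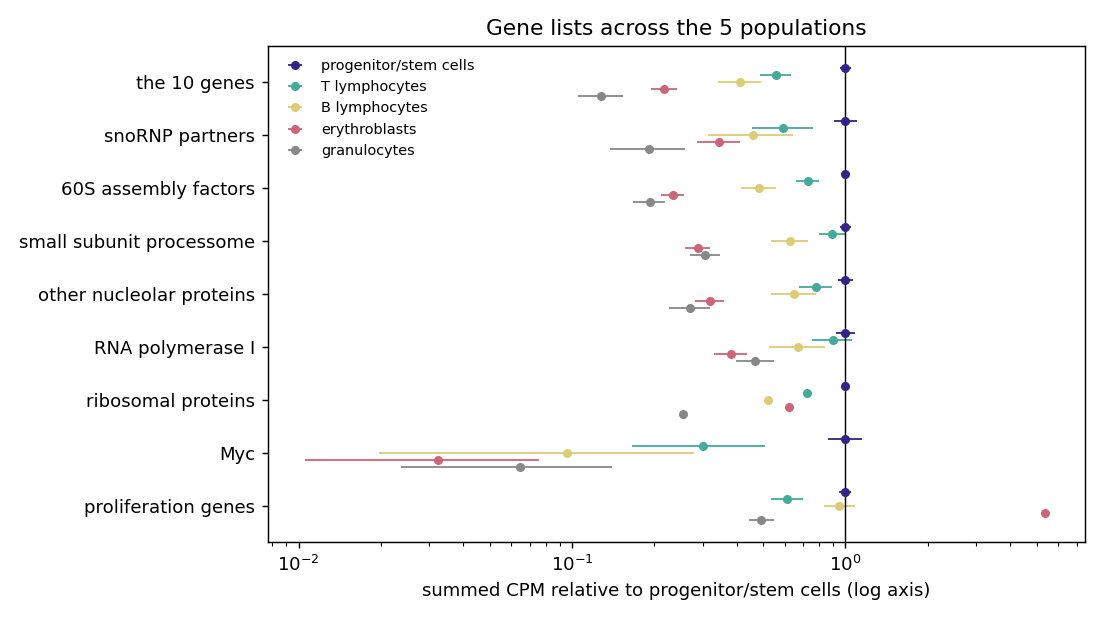
Summed CPM of gene lists of ribosome production, of Myc and of proliferation genes in the 5 populations, each divided by its level in progenitor/stem cells (log axis), with 95% exact Poisson intervals. The T lymphocytes lie close to 1 for RNA polymerase I and the small subunit processome and further left for the 10 genes, and only the proliferation genes in erythroblasts lie far to the right of 1.

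The MYC network, with 10 of its 11 genes in the table, differed among its genes. Myc was at 231 CPM (200 to 266, 193 UMIs) in progenitor/stem cells, 69.9 CPM (38.2 to 117) in T lymphocytes, 22.1 CPM (4.56 to 64.6) in B lymphocytes, 14.9 CPM (5.46 to 32.4) in granulocytes and 7.50 CPM (2.44 to 17.5) in erythroblasts. Mycn had 53 UMIs in progenitor/stem cells (63.5 CPM), 1 each in B lymphocytes and erythroblasts and 0 in T lymphocytes and granulocytes. The MAX dimerisation proteins, which repress MYC target genes, had other orders, with Mxd1 highest in granulocytes (317 CPM against 9.58 CPM in progenitor/stem cells), Mxd3 in erythroblasts (201 against 12.0 CPM) and Mxd4 in B lymphocytes (250 against 188 CPM). Mga was at 310 CPM in progenitor/stem cells against 27.0 to 165 CPM elsewhere, and Mlx at 62.0 CPM in granulocytes against 24.0 CPM in progenitor/stem cells. The intervals of Myc overlapped among the B lymphocytes, granulocytes and erythroblasts, so their order was not resolved.

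Proliferation genes followed a different order from the members. All 8 genes of the list (Mki67, Top2a, Pcna, Mcm2, Mcm5, Mcm6, Tyms and Rrm2) were highest in erythroblasts, with a sum of 9812 CPM there against 1822 CPM in progenitor/stem cells, 1730 CPM in B lymphocytes, 1118 CPM in T lymphocytes and 897 CPM in granulocytes. Mki67 was at 5061 CPM in erythroblasts and 398 CPM in progenitor/stem cells. Against the erythroblasts 7 of these 8 genes were at least 2-fold lower in progenitor/stem cells, beside 14.8% of all genes. Of the 6 nucleolar genes that reached the UMI limit, 0 were. Each of these 6 reached that limit through its progenitor/stem UMIs alone. The 0 of 6 is therefore not free of their direction, and no contrast with the proliferation genes is drawn from it.

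The genes whose levels followed the 10 most closely were ranked over the 5 populations by the root mean square difference of centred log2(CPM + 10) from that of the summed members, among 3900 genes with at least 100 UMIs. The 5 nearest were Mif, a cytokine (0.15), Fkbp3, a nuclear prolyl isomerase (0.15), Ddx21 (0.17), Rsl1d1 (0.17) and Lrrcc1, a centrosomal protein (0.17). Mif had 206 CPM in progenitor/stem cells and 105, 73.6, 25.5 and 17.3 CPM in T lymphocytes, B lymphocytes, erythroblasts and granulocytes. Ddx21 and Rsl1d1 were on the list of 60S assembly factors. For the members the same measure against the sum of the other 9 ranged from 0.26 (Nolc1) and 0.31 (Npm1) to 0.92 (Gnl3, with 14 UMIs).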

How the data were processed

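The deposited table holds UMI counts per gene and well, which the authors made with *scPipe* after alignment with *Rsubread*. Versions, strand, annotation and build were not given in the sources used here, and the labels contradict each other on which bases of read 1 hold the UMI and which the cell barcode. Wells were assigned to populations by their titles, and 9 columns without a labelled sample were not used. The 374 wells held 2241250 UMIs on mouse genes after 74 ERCC rows were set aside. Symbols matched 19755 of 19829 gene identifiers.

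Counts were summed per population and divided by the UMIs on mouse genes (CPM). Intervals at 95% were exact Poisson for levels, exact binomial for shares and exact conditional binomial for ratios. They cover counting error only, since no mouse was replicated, so no p-value is given. The ratio interval was run on simulated Poisson counts. These hold no spread between cells, so that run checks the calculation and cannot show the coverage in these data. A gene counted as 2-fold at a log2 ratio of 1 if it reached 50 UMIs over the 2 populations, and sums under 3 UMIs were set to 3. Coordinates and overlaps came from GENCODE M21 (GRCm38), possibly not the build of the authors, and copies from *blastn* 2.17.0. Alternatives used *scran* 1.30.0, *edgeR* 4.0.16 (TMM), another denominator, equal weight for wells, other wells and thinning. Python 3.11.15, numpy 2.4.6, pandas 2.3.3, scipy 1.17.1 and R 4.3.3 were used.

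The 10 genes and the lists were chosen with earlier results of these data known. Named besides the 10 were, per ribosome list, the 3 genes with most UMIs and up to 3 with at least 50 UMIs and their highest population elsewhere, MYC network genes with at least 50 UMIs, and the 5 nearest patterns. The marker, proliferation and Nop56 copy genes were named for the checks they serve.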

Additional observations from a re-analysis of the deposited data

How the results depend on the processing

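The summed 10 genes were higher in the progenitor/stem cells than in each other population under all 7 alternatives. The log2 ratio to the erythroblasts (2.20) was 1.19 with scran size factors, 1.34 with TMM factors, 1.84 with Gm42418, Mir6240, mitochondrial and haemoglobin genes left out of the total, and 2.40 as a mean over wells. The ratio to the granulocytes (2.97) was 2.14 with scran, 2.20 with TMM and 3.54 with wells thinned to 1000 UMIs, and the ratio to the B lymphocytes (1.29) was 0.99 with scran. Genes past 2-fold against the B lymphocytes (6) were 3 with scran, beside 19.7% of all genes, and 1 after thinning, where 3 UMIs is a higher floor, beside 11.3%, which is near that background. Against the T lymphocytes (1) they were 0 with scran, TMM, the reduced total, the mean over wells and thinning, beside 7.93% (thinning) to 17.3% (mean over wells) of all genes. With genes required only to have 1 UMI in each population, the background was 12.5% against the B lymphocytes in place of 27.9% and 11.4% against the T lymphocytes in place of 17.8%. The reduced total moved the share of higher genes among those past 2-fold from 73.5% to 63.1% against the erythroblasts and from 80.9% to 69.3% against the B lymphocytes. Thinning moved it from 80.9% to 43.7% against the B lymphocytes and from 68.1% to 30.3% against the T lymphocytes, so that most such genes were then lower in the progenitor/stem cells. Of 243 values for single genes, 241 stayed above 0, and after thinning the log2 ratio was -0.015 for Gnl3 over granulocytes and -0.14 for Fbl over B lymphocytes. The cause of these changes was not tested.

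No paired analysis was possible because the populations came from 1 mouse and the well numbers pair no cells. Counts limit Nop56, Nop58, Dkc1 and Gnl3, which had under 50 UMIs in every pair of populations. Plate row and tissue of origin cannot be told apart from population.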
